A study of Mus musculus with 27 samples.

Results

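Recruited alveolar macrophages collected 12 days after lipopolysaccharide (LPS) were set against those collected on day 6, across all genes that passed a count filter. The 6 libraries, 3 from each day, were taken by their labels out of 27 in the series, and 13599 of the 38124 genes in the count table were tested. All mice were C57B/6 animals aged 8 to 14 weeks, and no transgene, deletion or Cre is named in the labels. Each mouse, other than the untreated mice of day 0, had been given 20 ng LPS, the mass unit as labelled, in 50 µL phosphate-buffered saline into the trachea. Cells were washed from the airspaces by bronchoalveolar lavage and sorted, and the recruited gate was CD11c-CD11b+. Recruited cells of days 3 and 9, and resident alveolar macrophages (CD11c+CD11b-) of days 3, 6, 9 and 12, also with 3 libraries a group, served as references. Untreated day 0 resident cells stayed in the fit. The labels do not say whether libraries came from separate mice or from pools, so p-values measure the spread between these libraries, which may be technical.

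LPS is a bacterial cell wall component that calls monocytes from the blood into the airspaces, where they become macrophages beside the long-lived resident alveolar macrophages. Monocytes entering an inflamed lung carry Ly6C and make nitric oxide, chemokines and complement, and they rely on glycolysis. Resident alveolar macrophages clear surfactant lipid, need GM-CSF, TGF-beta and the nuclear receptor PPAR-gamma for their identity, and carry CD11c and Siglec-F on their surface. The comparison of days 12 and 6 asks how the recruited cells changed once the first inflammatory days had passed.

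The 6 libraries held 11093216 to 15721030 counts and 16400 to 17621 genes with a count. Levels are given as CPM, counts scaled to a common library size with TMM factors, in the order of libraries 1, 2 and 3. Broad macrophage genes were present in every library: Cd68, a lysosomal macrophage marker, was at 868 to 2267 CPM and Adgre1, which encodes F4/80, at 453 to 1038 CPM. Of the defining markers of other cells, Ly6g and Mpo of neutrophils, Epx of eosinophils and Pax5 of B cells were at 0 in all 6, and Cd3e of T cells was at most at 1.83 CPM. Other members of the same lists had counts. At 0 in all 6 were 2 of 16 neutrophil markers, 6 of 10 of eosinophils and basophils and 3 of 11 of B and plasma cells. The summed eosinophil and basophil list was at 33.5, 6.22 and 17.45 CPM on day 6 and at 6.92, 109 and 78.1 CPM on day 12. In resident cells of day 12 it was at 302 to 742 CPM. S100a8, abundant in neutrophils and monocytes, was at 12.0 to 43.9 CPM, and S100a9 reached 20.2 CPM in library 3 of day 6 and at most 3.00 CPM in the other 5. Sftpc, a surfactant gene of alveolar epithelium, reached 12.0 CPM in library 1 of day 12 and at most 1.396 CPM in the other 5. Library 2 of day 6 had 26.5% of its reads outside genes, against 7.03% to 12.3% in the other 5. It also held 1394 CPM of mt-Rnr1, a mitochondrial ribosomal RNA, against 199 and 168 CPM in the other day 6 libraries.

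Library 1 of day 12 stood apart from libraries 2 and 3 of that day. It differed by more than 2-fold from them in 5.19% and 5.91% of 6919 well-measured genes, while libraries 2 and 3 differed from each other in 0.708%. It was closer to library 2 of day 9, from which it differed in 1.29% of these genes. C1qa, a subunit of the first complement component made by tissue macrophages, was at 1239 CPM in library 1 of day 12 and at 89.1 and 100.2 CPM in libraries 2 and 3. Apoe, the lipid carrier of lipoproteins, was at 19515, 4503 and 5963 CPM, Gpnmb, a glycoprotein of lipid-laden macrophages, at 6060.2, 1671 and 1643 CPM, and Spp1, the secreted matrix protein osteopontin, at 13439, 595 and 757 CPM. None of these 4 genes passed the test between the days. Both libraries carry column numbers from 12 to 18 in the table of unassigned reads, as do 1 resident library of day 9 and 1 of day 12, and no source used here says what those numbers mean. Fits without these libraries are given with some of the results they change. A fit with the runs of column numbers as a covariate is given for the counts of calls and for some of the gene lists that it changed.

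**Figure D1:**
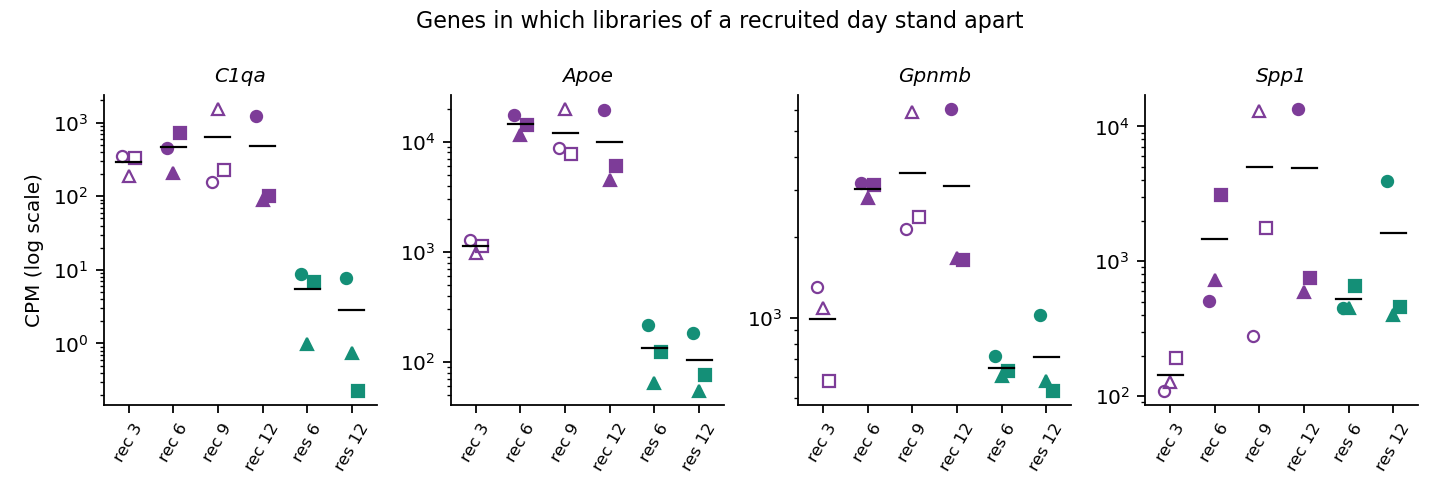
Level of C1qa, Apoe, Gpnmb and Spp1 in CPM (log scale) in each library of recruited cells (rec, purple) on days 3, 6, 9 and 12 and of resident cells (res, green) on days 6 and 12. Circles, triangles and squares are libraries 1, 2 and 3, and lines are means; library 1 of day 12 and library 2 of day 9 lie far above the other libraries of their days, with Spp1 at 13439 CPM against 595 and 757 CPM on day 12.

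Between day 6 and day 12, 468 genes passed edgeR's quasi-likelihood test at an adjusted p under 0.05, which is 3.44% of the genes tested, and such genes are called raised or lowered. Raised on day 12 were 264 genes (1.94%), with a median log2 change of 0.77, and lowered were 204 (1.5%), with a median of -0.88. At least 2-fold changes were seen in 96 of the raised genes (0.706% of those tested) and 89 of the lowered genes (0.654%). The 3 libraries of one day lay wholly above or below those of the other in 444 of the 468, and in 19% of all genes tested. An unadjusted p under 0.05 was reached by 2350 genes (17.3%). For the list counts below, the shares over all genes tested are 1.94% raised, 1.5% lowered and 17.3% at such a p. They are 9.88% with all day 12 libraries above day 6 and 9.11% with all below. In RNA from a bulk population, fewer cells of a kind and less RNA per cell cannot be told apart. The number of calls depended on single libraries: it was 153 without library 1 of day 6, 208 without library 2 of day 6, 712 without library 1 of day 12, 105 without library 2 of day 12 and 214 without library 3 of day 12. Without both library 1 of day 12 and library 2 of day 9 it was 1022, and with the runs of column numbers as a covariate 1477. Of these 1477 genes 777 were raised and 700 lowered, and list counts given with that covariate stand against these. The calls held in each of the 6 fits that left out a single library for 88 genes, 49 raised and 39 lowered, and these are described below as holding in all 6 fits.

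**Figure D2:**
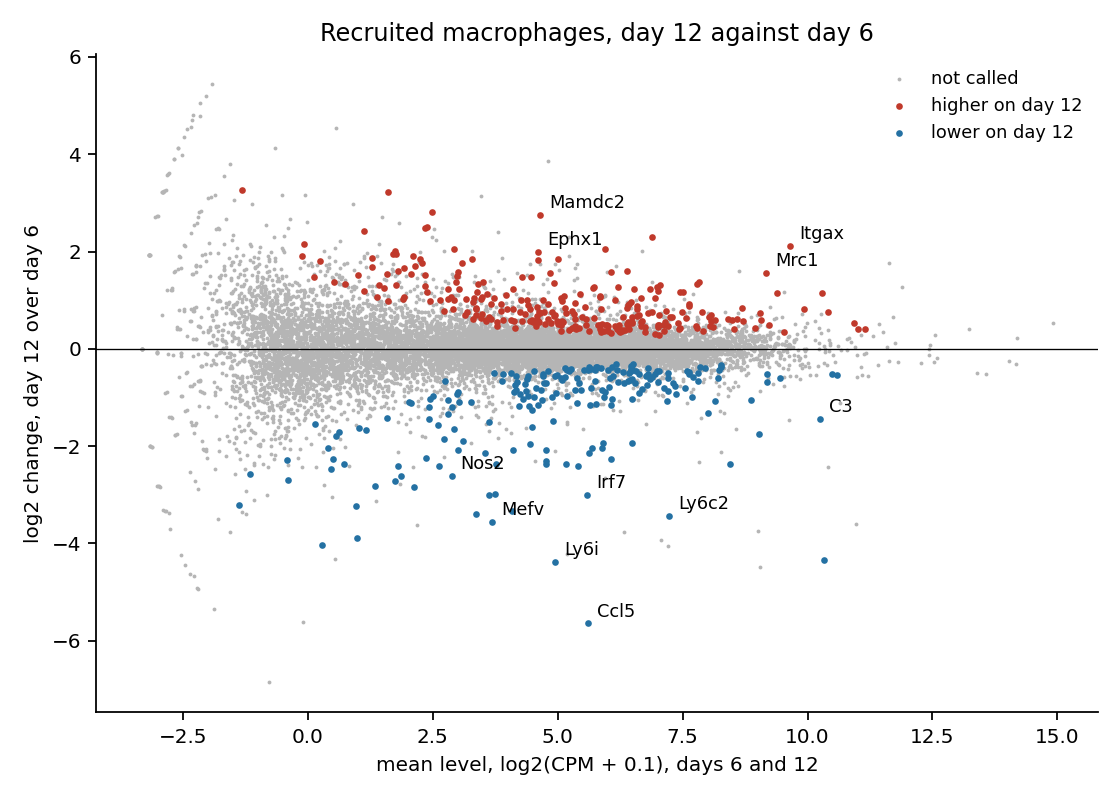
Log2 change of each tested gene from day 6 to day 12 in recruited macrophages, plotted against its mean level as log2(CPM + 0.1). Red points are the 264 raised and blue points the 204 lowered genes; Itgax lies among the abundant raised genes and Ccl5 and Ly6i among the deepest falls.

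Some genes of resident alveolar macrophages rose in the recruited cells. Of 35 genes listed for resident identity, 5 rose and none fell, and 33 had a log2 change above 0. The median change of the list was 0.96, against 0.0084 over all genes tested. With DESeq2 12 of the 35 rose, and 12 rose in edgeR with the runs of column numbers as a covariate. The edgeR count was 10 without library 1 of day 12, and 3 without library 1 of day 6 or library 2 of day 12. The summed level of the list was 8329 to 13121 CPM in the day 6 libraries and 20209 to 25748 CPM in those of day 12, and it was 42383 to 45610 CPM in resident cells of day 12. Spp1 is a member of this list. Its level in library 1 of day 12, given above, was a large part of the 25748 CPM summed there. Libraries 2 and 3 of day 12 summed to 21104 and 20209 CPM, with little from Spp1.

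Itgax, which encodes CD11c, the alpha chain of an integrin (ENSMUSG00000030789; GRCm38 chromosome 7, 128129547 to 128150657), was at 313, 289 and 305 CPM on day 6 and at 1263, 1318 and 1348 CPM on day 12. The libraries of each day were close together and far from those of the other day, and the sort on both days took CD11c- cells. The change was 4.33-fold, a log2 change of 2.11 ± 0.21 (SE, n = 3 libraries a day, adjusted p = 5.0e-06), and it held in all 6 fits. On day 9 the level was 455, 579 and 857 CPM, and in resident cells of day 12 it was 2272 ± 74.0 CPM (SD, n = 3). The recruited level thus went from 14.2% of the resident mean of the same day to 57.6%. Itgam, which encodes CD11b, the other gating marker, was at 2042, 2165 and 2418 CPM on day 6 and at 1441, 844 and 792 CPM on day 12. The days did not overlap, but the gene was not called (adjusted p = 0.259), and resident cells of day 12 held 10.7 CPM.

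Mrc1, the mannose receptor, was at 222, 288 and 364 CPM on day 6 and at 605, 1032 and 952 CPM on day 12. All libraries of day 12 lay above those of day 6, with library 1 the lowest of its day (log2 change 1.57 ± 0.39, adjusted p = 0.0312). Atp6v0d2, a subunit of the vacuolar proton pump that alveolar macrophages express strongly, rose from 375, 494 and 389.7 CPM to 1124, 826 and 831 CPM, which is 78.6% of the resident mean on day 12. Neither call held in all 6 fits. Tgfbr2, the type II receptor for TGF-beta, was at 248, 316 and 325 CPM on day 6 and at 501, 555 and 542 CPM on day 12, with no overlap. Cd9, a tetraspanin of the cell surface, was at 921, 1148 and 967 CPM on day 6 and at 1671, 1738 and 1692 CPM on day 12, again with no overlap. Tgfbr2 (log2 change 0.85 ± 0.14, adjusted p = 0.00149) and Cd9 (0.75 ± 0.14, adjusted p = 0.00546) held in all 6 fits.

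Several other markers of resident cells did not pass the test. Siglecf, which encodes Siglec-F, was at 25.7, 11.8 and 21.2 CPM on day 6 and at 20.5, 89.2 and 76.0 CPM on day 12. Library 1 of day 12 lay within the day 6 range while libraries 2 and 3 lay above it, the adjusted p was 0.135, and without that library Siglecf was called. Pparg, the gene of PPAR-gamma, was at 40.4, 68.8 and 40.6 CPM and then at 64.2, 114 and 112 CPM (adjusted p = 0.107), and Chil3, a chitinase-like protein abundant in resident cells, was at 1490.0, 2003 and 3214 CPM and then at 1366, 7654 and 7204 CPM (adjusted p = 0.129); both were also called without library 1 of day 12. Marco, a scavenger receptor, stood at 12.7% of the resident mean on day 12, Car4, a carbonic anhydrase, at 7.98%, Siglecf at 11.9% and Fabp4, a fatty acid binding protein, at 34.2%. None of these 4 was called. Among genes that rose, the share of the resident mean on day 12 was 42.9% for Mrc1, 57.6% for Itgax, 78.6% for Mamdc2 and 231% for Ephx1. Of 11 tested epithelial markers 9 had a log2 change above 0, with a median of 1.32 (0.43 without library 1 of day 12). The edgeR test called 0 and DESeq2 called 1, and 6 had an unadjusted p under 0.05, against 17.3% of all genes tested. Among the 11 markers Epcam, at 0.371 to 1.18 CPM on day 6 and 1.98 to 5.31 CPM on day 12, was at 43.9 CPM in resident cells. The summed epithelial level was 148.2 to 197 CPM on day 6 and 190 to 240 CPM on day 12, and its part in these results was not tested.

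**Figure D3:**
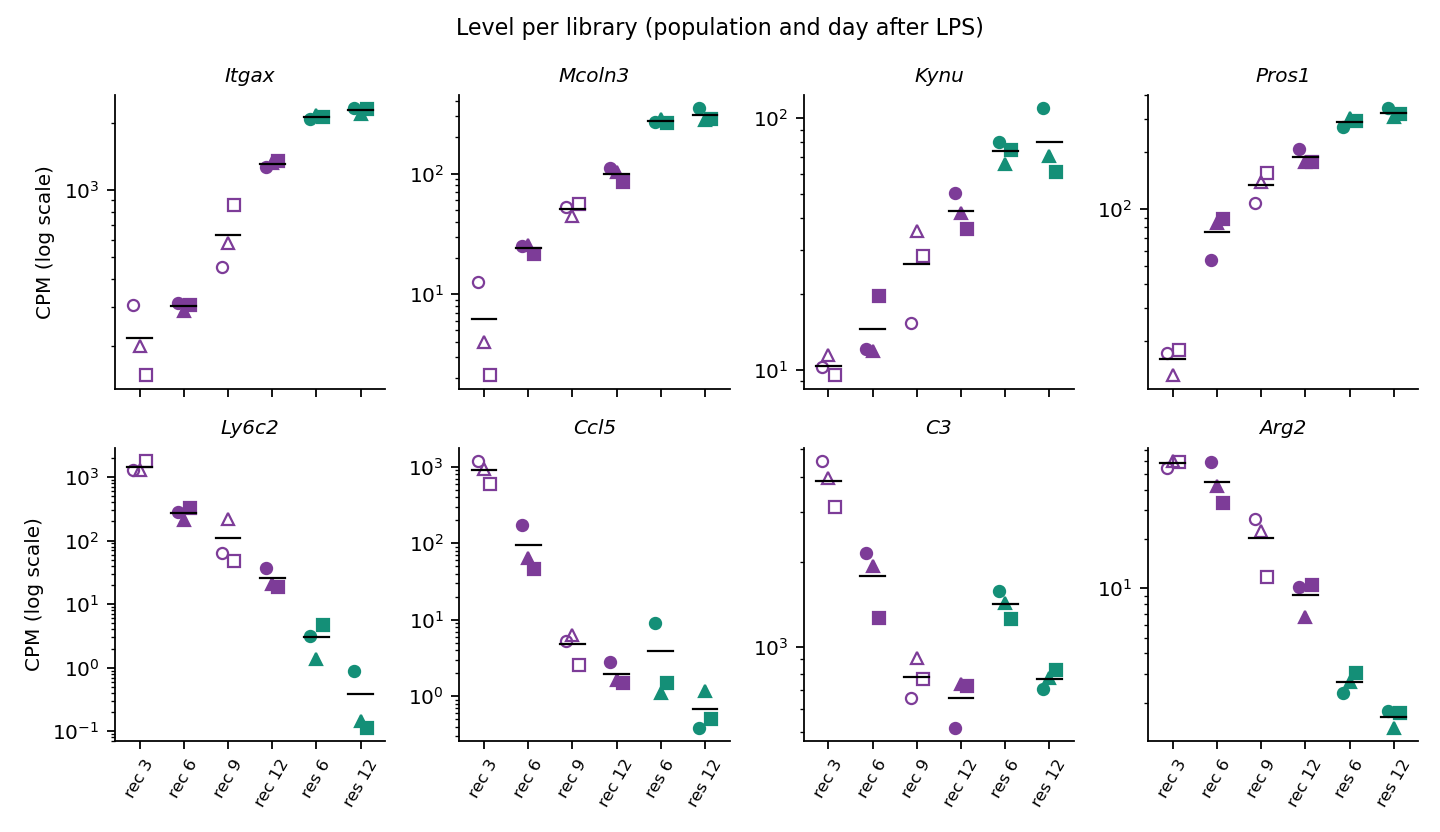
Level in CPM (log scale) of 4 raised genes (upper row) and 4 lowered genes (lower row) in each library of recruited cells (rec, purple) on days 3, 6, 9 and 12 and of resident cells (res, green) on days 6 and 12. Circles, triangles and squares are libraries 1, 2 and 3 and lines are means; on day 12 the raised genes lie between the recruited day 6 and resident levels, with Itgax at 57.6% of the resident mean.

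Among the most raised genes of the whole table was Mamdc2, a secreted protein of the matrix, which went from 8.65, 3.99 and 6.51 CPM to 86.4, 21.01 and 23.9 CPM. Library 1 of day 12 was the highest, and the lowest day 12 library still lay above all of day 6 (log2 change 2.76 ± 0.44, adjusted p = 0.00160). Mcoln3, a cation channel of endosomes and lysosomes, was at 24.99, 25.4 and 21.5 CPM on day 6 and at 110.5, 102 and 84.6 CPM on day 12. The 2 days were far apart (log2 change 2.05 ± 0.32, adjusted p = 0.00122). Ephx1, the microsomal epoxide hydrolase, rose from 9.53, 9.56 and 10.3 CPM to 45.8, 35.9 and 35.2 CPM, above the 16.9 ± 5.10 CPM (SD, n = 3) of resident cells on day 12. Kynu, the kynureninase of tryptophan breakdown, went from 12.1, 11.8 and 19.5 CPM to 50.3, 42.0 and 36.1 CPM. No library of day 12 overlapped with day 6 in any of these 4 genes, and all 4 held in all 6 fits. Slco2b1, an organic anion transporter, Gprc5c, an orphan receptor, Kazald1 and Galnt3, an enzyme that starts O-linked glycans, were raised 2.79-fold to 3.60-fold. These 4 calls were each lost in at least 2 of the 6 fits. Of the 264 raised genes, 230 had a higher mean in resident than in recruited cells of day 12.

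Genes for the uptake of dead cells and modified lipids rose in part. Of 30 tested genes for efferocytosis and scavenging, 4 rose and 1 fell, with a median of 0.18, and 2 rose and 0 fell without library 1 of day 6 or library 2 or 3 of day 12. Mrc1, given above, was among those that rose. Pros1, protein S, which bridges dying cells to the receptors Axl and Mertk, was at 53.6, 84.0 and 88.5 CPM on day 6 and at 208, 178 and 176 CPM on day 12 (log2 change 1.31 ± 0.18, adjusted p = 0.000372). The lowest day 12 library lay far above the highest day 6 library. Axl itself was at 774, 805 and 743 CPM and then at 1108, 2029.8 and 2015 CPM, with library 1 of day 12 nearest to day 6 (log2 change 1.15 ± 0.25, adjusted p = 0.0154). Olr1, a receptor for oxidised lipoprotein, went from 93.9, 119 and 108 CPM to 215, 280.4 and 228 CPM, with no overlap. Pros1 and Olr1 held in all 6 fits. The member that fell was Abca1, which exports cholesterol from the cell, from 892, 676 and 851 CPM to 440.3, 115 and 160.4 CPM (adjusted p = 0.0484, lost in 5 of the 6 fits).

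Genes of the classical monocyte fell in small number. Of 24 listed genes, 2 fell and none rose, and the median was -0.37. Over all genes tested 1.5% were lowered and 1.94% raised. With the runs of column numbers as a covariate 8 of the 24 fell. Ly6c2, which encodes the Ly6C antigen (ENSMUSG00000022584; GRCm38 chromosome 15, 75108158 to 75111970), was at 287, 208 and 331 CPM on day 6 and at 37.4, 20.7 and 18.6 CPM on day 12. Every day 12 library lay below every day 6 library (10.8-fold lower, log2 change -3.44 ± 0.60, adjusted p = 0.00322). On day 9 the libraries split, at 64.8, 221 and 48.1 CPM. Its relative Ly6i went from 63.4, 73.6 and 39.5 CPM to 4.49, 2.30 and 1.95 CPM (log2 change -4.37 ± 0.60, adjusted p = 0.000526). Reads can be shared between near-identical Ly6 genes, so the split between them is uncertain. Plac8, a small protein of blood monocytes, was at 5.28, 2.04 and 3.32 CPM on day 6 and had counts in only 1 of the 3 libraries of day 12, at 0.610 CPM. These 3 falls held in all 6 fits.

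Of the 24 genes 17 had a change below 0, and 7 had all day 12 libraries below those of day 6, against 9.11% of all genes tested. Several monocyte genes outside these calls had overlapping days. Ccr2, the receptor that draws monocytes into tissue, was at 30.3, 44.3 and 137 CPM on day 6 and at 115, 145 and 98.3 CPM on day 12 (adjusted p = 0.375), and without library 3 of day 6 it was called raised. F13a1, the coagulation factor XIII A chain, was at 416, 369.8 and 787 CPM and then at 589.8, 239.5 and 278 CPM, with overlapping days. Cx3cr1, the fractalkine receptor, ranged from 16.7 to 67.9 CPM on day 6 and from 24.8 to 66.5 CPM on day 12. Csf1r, the receptor for the growth factor CSF1, fell from 1722, 1631 and 1729 CPM to 1185, 1129 and 1239 CPM (log2 change -0.52 ± 0.12, adjusted p = 0.0233), and Cd14, a co-receptor for LPS, from 651, 743 and 494 CPM to 184, 259 and 463 CPM (adjusted p = 0.0398). Neither of these 2 calls held in all 6 fits.

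Among chemokines and NF-kB genes more members were lowered than raised. Of 38 cytokines and chemokines, 4 fell and 2 rose, with a median of -0.27, and without library 3 of day 12 the median was -1.03, with 1 raised and 3 lowered. Without library 2 of day 12, 0 rose and 2 fell. Of 25 genes of NF-kB feedback and the acute phase, 5 fell and 1 rose, with a median of -0.63, and 3 fell and 0 rose without any 1 of the day 6 libraries or without library 2 of day 12. Markers of neutrophils, of T and NK cells, and of erythroid cells and platelets had mostly negative changes beside these genes. In each of these lists edgeR called 0 in all libraries, and DESeq2 called 1 of T and NK cells, higher. Without library 1 of day 12 edgeR called 1 erythroid or platelet marker lower. Without library 2 of day 9 as well it called 1 such marker and 1 of T and NK cells lower. With only the groups compared 1 neutrophil marker was called lower. With the runs of column numbers as a covariate 2 neutrophil markers and 1 erythroid or platelet marker were lower and 2 of T and NK cells higher. A change below 0 was seen in 10 of 13 tested neutrophil markers (median -0.67, 3 at an unadjusted p under 0.05). It was also seen in 14 of 19 of T and NK cells (median -0.57, 6 at such a p). For erythroid cells and platelets it was 6 of 6 (median -0.82, 1 at such a p). Of 12 tested dendritic cell markers 6 had a change below 0 (median 0.059) and 1, Ccl22, was called raised. Of 5 tested endothelial and stromal markers 4 had a change below 0, with 0 called. The 1 tested marker of eosinophils and basophils (log2 change 1.75) and the 1 of B cells (-0.16) were not called. Epithelial markers are given above. The summed neutrophil list was at 439 to 510 CPM on day 6 and 338 to 461 CPM on day 12, that of T and NK cells at 92.7 to 147 CPM and then 81.7 to 201 CPM, and that of erythroid cells and platelets at 26.7 to 96.6 CPM and then 7.12 to 25.5 CPM. Their part in the result was not tested. Ccl5, a chemokine for T cells and monocytes (ENSMUSG00000035042; GRCm38 chromosome 11, 83525778 to 83530518), was at 174, 64.4 and 46.5 CPM on day 6 and at 2.78, 1.61 and 1.46 CPM on day 12. The lowest day 6 library was far above the highest of day 12 (49.9-fold lower, log2 change -5.64 ± 0.75, adjusted p = 0.000526). Nos2, the inducible nitric oxide synthase, went from 13.6, 14.1 and 9.76 CPM to 1.44, 1.68 and 2.87 CPM (log2 change -2.61 ± 0.44, adjusted p = 0.00314). Relb, a subunit of the alternative NF-kB pathway, went from 63.7, 56.2 and 49.5 CPM to 29.5, 32.0 and 33.0 CPM, and its partner Nfkb2 from 142, 142 and 128 CPM to 78.4, 75.9 and 91.6 CPM. Relb and Nfkb2 were singled out after their values were seen. None of these 4 genes had overlapping days, and all 4 falls held in all 6 fits.

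Acod1, which makes itaconate, fell from 41.5, 33.8 and 60.1 CPM to 10.3, 9.08 and 6.96 CPM, and Lcn2, which binds bacterial siderophores, from 23.5, 26.2 and 21.9 CPM to 1.17, 1.19 and 6.23 CPM. Ccl9, a chemokine of the myeloid lineage, fell by 1.32 on the log2 scale and Tnfsf9, a costimulatory ligand, 3.13-fold. These 4 calls were each lost in 2 or more of the 6 fits. The genes that rose were Ccl22, a chemokine for regulatory T cells, at 2.71, 0.650 and 0.692 CPM and then 5.03, 16.9 and 7.14 CPM, Il18, from 18.03, 14.7 and 19.5 CPM to 18.9, 43.6 and 42.3 CPM, and Slpi, a protease inhibitor, from 53.3, 62.4 and 61.7 CPM to 101, 113 and 124 CPM. Library 1 of day 12 lay within the day 6 range for Il18. The call of Ccl22 was lost without library 2 of day 12, and those of Il18 and Slpi in 5 of the 6 fits. The early cytokines were not called: Tnf was at 9.31 to 16.3 CPM and then 5.75 to 58.5 CPM, Il1b at 83.1 to 202 CPM and then 32.9 to 87.0 CPM, and Ccl2, a monocyte chemokine, at 10.5 to 21.3 CPM and then 1.81 to 14.9 CPM.

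Among 18 complement genes 2 fell and 1, Itgax, rose. C3, the central complement protein (ENSMUSG00000024164; GRCm38 chromosome 17, 57203970 to 57228136), was at 2154, 1936 and 1259 CPM on day 6 and at 514, 737 and 723 CPM on day 12. The groups did not overlap (2.71-fold lower, log2 change -1.44 ± 0.18, adjusted p = 0.000154). Cfb, factor B of the alternative pathway, went from 77.1, 123 and 85.2 CPM to 23.4, 26.3 and 24.8 CPM (adjusted p = 0.0291), a call lost in 5 of the 6 fits. Of the genes lowered most in the whole table, C1s1, a complement serine protease with a near-identical copy, fell 10.1-fold, from 25.7, 45.9 and 19.9 CPM to 4.94, 2.37 and 1.95 CPM. Mefv, which encodes the inflammasome protein pyrin, fell 11.7-fold, from 27.2, 14.4 and 28.7 CPM to 3.59, 0.977 and 1.65 CPM. Ltb4r1, the receptor for leukotriene B4, fell 5.19-fold, from 18.5, 21.7 and 27.98 CPM to 5.66, 4.26 and 3.36 CPM. In C3, Cfb, C1s1, Mefv and Ltb4r1 every day 12 library lay below every day 6 library. Of these, C3, C1s1, Mefv and Ltb4r1 held in all 6 fits.

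Interferon-stimulated genes had mostly negative changes and few calls. Of 42 tested, 4 fell and none rose, 39 had a log2 change below 0 and the median was -0.69, while in resident cells the same list had a median of -0.81 between the same days. Irf7, the transcription factor that amplifies type I interferon, was at 132, 51.7 and 72.1 CPM on day 6 and at 17.2, 7.68 and 7.32 CPM on day 12 (log2 change -3.01 ± 0.62, adjusted p = 0.0116). Library 1 was the highest on both days. Oas3, an antiviral synthetase, went from 71.0, 25.1 and 34.4 CPM to 13.8, 10.1 and 7.14 CPM, and Rtp4 and Ifi44 also fell. Library 1 of day 6 was the highest of its day in each of these 4 genes, and all 4 calls were lost without it. The count was also 0 without library 2 or library 3 of day 12. Ifnar1, a chain of the type I interferon receptor, went from 166, 149.97 and 215 CPM to 113, 93.7 and 96.9 CPM, with no overlap (log2 change -0.81 ± 0.12, adjusted p = 0.000569), and held in all 6 fits. The other chain, Ifnar2 (log2 change -0.39 ± 0.09), and the interferon-gamma receptor chain Ifngr2 (-0.48 ± 0.11), both named after their values were seen, were also lowered and lost the call in 4 of the 6 fits. They belong to 52 growth factor and immune receptors, of which 6 fell and Tgfbr2 rose. The call count was 2 falls without library 1 or 2 of day 6 or library 2 of day 12, and 3 without library 3 of day 12. With the runs of column numbers as a covariate it was 14 falls and 3 rises. The called member with the deepest fall was Clec4a1, a C-type lectin receptor, from 102, 70.4 and 111 CPM to 24.97, 24.0 and 20.4 CPM, without overlap and in all 6 fits.

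Genes of glycolysis and of the hypoxia response held the most lowered members of the 30 lists. Of 35 tested, 13 fell and 1 rose, 20 had all day 12 libraries below those of day 6, against 9.11% of all genes, and the median was -0.53. In resident cells the median of the same list between these days was 0.0098. The count of falls was 5 without library 2 of day 12, 7 without library 3 of day 12 and 8 without library 1 or library 2 of day 6, and 13 without library 1 of day 12. With the runs of column numbers as a covariate it was 22. The 5 genes whose fall held in all 6 fits are targets of the hypoxia-inducible factors or genes of the same response: Egln3, Ankrd37, P4ha1, Kdm3a and Mif. Their promoters, the 250 bases before the RefSeq start site in GRCm38.p6, are shown because these genes move together. Capitals mark ACGTG or GCGTG on either strand (CACGT or CACGC on the strand shown), the core bound by hypoxia-inducible factors, which is also part of the E-box CACGTG and of the core bound by the aryl hydrocarbon receptor. The windows are chr12:54203875-54204124 (minus strand) for Egln3, chr8:45999851-46000100 (minus) for Ankrd37, chr10:59323046-59323295 (plus) for P4ha1, chr6:71632918-71633167 (minus) for Kdm3a and chr10:75860278-75860527 (minus) for Mif, each written 5′ to 3′ along its gene.
Egln3: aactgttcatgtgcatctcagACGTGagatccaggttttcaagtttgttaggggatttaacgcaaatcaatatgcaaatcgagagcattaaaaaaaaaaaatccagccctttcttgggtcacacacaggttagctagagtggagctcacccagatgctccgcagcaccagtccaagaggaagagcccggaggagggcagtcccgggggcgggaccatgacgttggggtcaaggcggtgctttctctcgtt
Ankrd37: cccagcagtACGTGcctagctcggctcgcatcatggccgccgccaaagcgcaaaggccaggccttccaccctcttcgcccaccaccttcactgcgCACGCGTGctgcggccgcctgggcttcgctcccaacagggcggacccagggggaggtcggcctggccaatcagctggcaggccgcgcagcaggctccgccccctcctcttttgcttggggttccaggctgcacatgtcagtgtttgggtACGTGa
P4ha1: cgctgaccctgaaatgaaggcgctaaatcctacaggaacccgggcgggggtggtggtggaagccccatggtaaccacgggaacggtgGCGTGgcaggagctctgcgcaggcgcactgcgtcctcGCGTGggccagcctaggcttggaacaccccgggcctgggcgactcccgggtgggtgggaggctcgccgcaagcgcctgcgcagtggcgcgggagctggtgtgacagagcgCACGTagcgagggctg
Kdm3a: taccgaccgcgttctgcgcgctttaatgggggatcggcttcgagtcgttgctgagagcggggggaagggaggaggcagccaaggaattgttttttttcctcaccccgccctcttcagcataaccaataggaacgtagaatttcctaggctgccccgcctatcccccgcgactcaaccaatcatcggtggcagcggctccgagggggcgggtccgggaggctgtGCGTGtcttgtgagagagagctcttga
Mif: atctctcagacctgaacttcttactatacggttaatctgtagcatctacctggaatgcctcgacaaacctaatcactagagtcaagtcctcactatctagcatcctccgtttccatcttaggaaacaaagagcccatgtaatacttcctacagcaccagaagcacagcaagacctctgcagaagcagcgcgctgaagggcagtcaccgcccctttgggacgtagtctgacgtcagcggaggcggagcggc

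The core was found in 4 of these 5 promoters and in 8 of the 13 promoters of genes that fell (61.5%), against 38.6% of all 27025 promoters of the same length and 23 of the 31 promoters found for the 35 listed genes. A match is a run of letters and not a measured site. For Egln3, Mif and Vegfa the bases that follow the window were found near the start of no GENCODE transcript, so their start sites are less certain.

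Egln3, a prolyl hydroxylase that marks hypoxia-inducible factors for destruction and is itself their target, was at 20.1, 18.8 and 17.4 CPM on day 6 and at 3.32, 4.61 and 4.76 CPM on day 12. The days were far apart (4.40-fold lower, log2 change -2.14 ± 0.31, adjusted p = 0.000526). Ankrd37, another hypoxia-induced gene, went from 4.03, 4.27 and 4.501 CPM to 0.629, 0.349 and 0.793 CPM (7.10-fold lower, adjusted p = 0.00255). P4ha1, a collagen prolyl hydroxylase, went from 220.0, 195 and 169 CPM to 137, 113 and 111 CPM, and Kdm3a, a histone demethylase, from 118, 101 and 89.95 CPM to 70.8, 57.8 and 68.7 CPM. Mif, a cytokine induced by hypoxia, went from 101, 87.8 and 88.3 CPM to 53.5, 36.9 and 34.7 CPM (log2 change -1.15 ± 0.19, adjusted p = 0.00192), with the caution that processed copies of this gene can share reads. The resident level on day 12 was lower than the recruited one for all 5, from 0.378 CPM for Egln3 to 71.5 CPM for P4ha1.

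Enzymes of glycolysis itself were among the 13 genes. Tpi1, triosephosphate isomerase, went from 422, 364 and 363 CPM to 234, 152 and 160.4 CPM, Gpi1, glucose phosphate isomerase, from 742, 687 and 638 CPM to 445, 485 and 514 CPM, and Aldoa, aldolase A, from 2057, 1754 and 1643 CPM to 1428, 1150.5 and 1203 CPM. Slc16a3, the lactate exporter, went from 204, 190.4 and 197 CPM to 123, 82.0 and 77.8 CPM, the last 2 values near the resident mean of 91.5 CPM. Pgk1, Bnip3 and Pfkfb3 were also lowered. In each of these 7 genes the days did not overlap, and each call was lost in at least 1 of the 6 fits. These 7 genes, like Kdm3a and Pfkfb4, were named after their values were seen. Vegfa, the endothelial growth factor, fell from 248, 106 and 72.0 CPM to 25.1, 31.0 and 55.1 CPM (adjusted p = 0.0456), with library 1 of day 6 the highest, and the call was lost in 5 of the 6 fits. Resident cells of day 12 held 0.216 CPM of Vegfa. The gene that rose was Pfkfb4, an isoenzyme that sets fructose 2,6-bisphosphate, from 93.1, 114 and 109.8 CPM to 124, 206 and 213 CPM (log2 change 0.78 ± 0.14, adjusted p = 0.00364, in all 6 fits), where resident cells held 359 CPM. Its relative Pfkfb3 went the other way, from 175, 186 and 177 CPM to 129.7, 103 and 119 CPM, where resident cells held 68.9 CPM. Hif1a, the gene of the hypoxia-inducible factor itself, was not called.

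**Figure D4:**
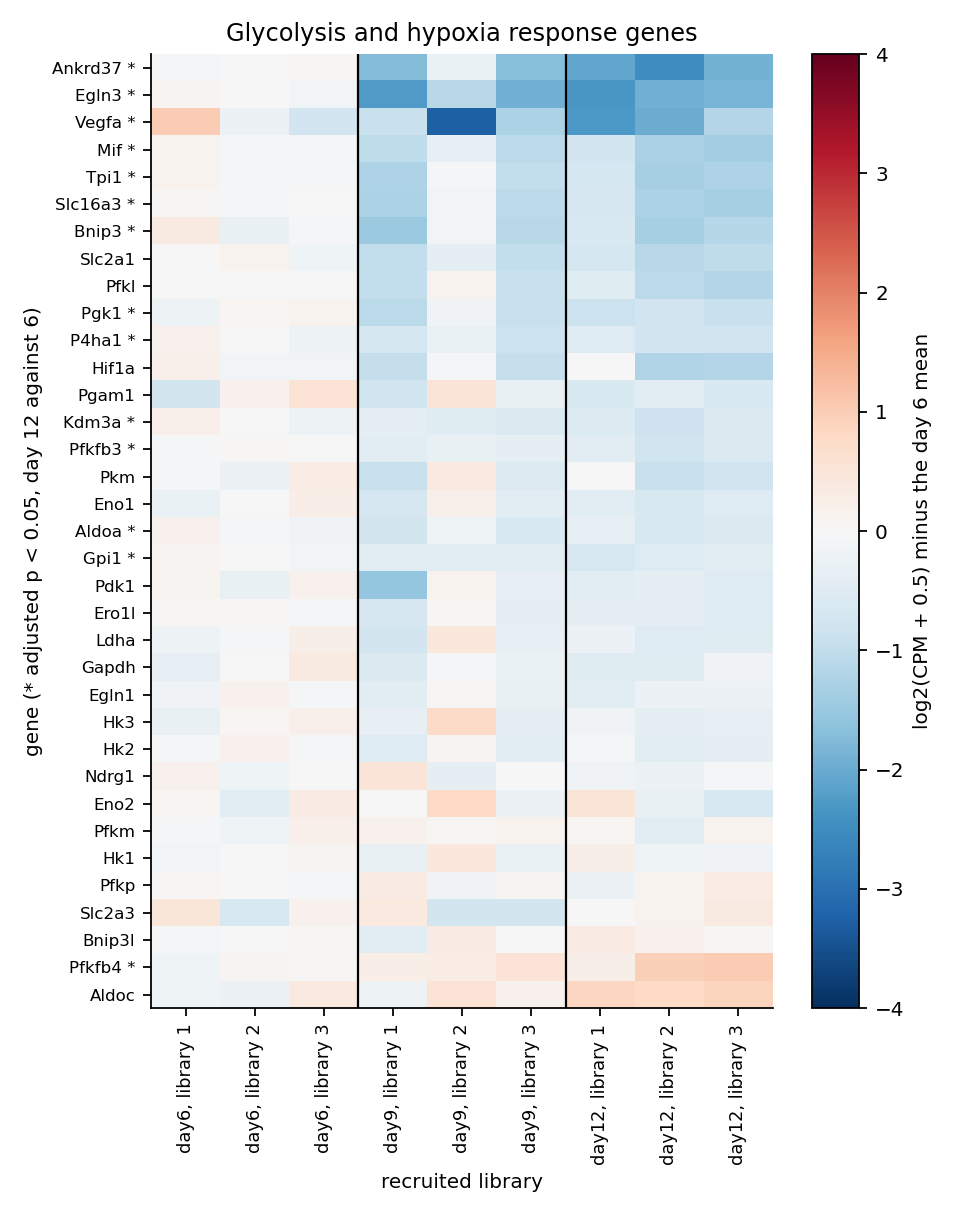
Log2(CPM + 0.5) of 35 glycolysis and hypoxia response genes in each recruited library of days 6, 9 and 12, minus the mean of the 3 day 6 libraries, with genes ordered by their change from day 6 to day 12. Blue is lower and red higher than day 6, and stars mark the 13 lowered and 1 raised genes; Egln3 and Ankrd37 have the deepest falls, and library 2 of day 9 is paler than the other libraries of its day for most of the lowered genes.

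Of 20 tested genes of arginine and polyamine metabolism 3 fell and none rose, while 11 had a change above 0 and the median was 0.030. Besides Nos2 these were Arg2, the mitochondrial arginase, from 58.8, 42.4 and 33.4 CPM to 10.2, 6.70 and 10.4 CPM (4.92-fold lower, log2 change -2.30 ± 0.29, adjusted p = 0.000154, in all 6 fits), and Ass1, which remakes arginine from citrulline, from 89.2, 77.9 and 57.4 CPM to 33.5, 35.3 and 33.7 CPM (adjusted p = 0.0244). Neither Arg2 nor Ass1 overlapped between the days, and the call of Ass1 was lost in 4 of the 6 fits. Arg1, the cytosolic arginase of alternatively activated macrophages, split within days, at 159, 221 and 760.0 CPM on day 6 and at 198, 15.4 and 14.0 CPM on day 12, and was not called (adjusted p = 0.340). Of 21 growth factors of repair, Vegfa and Inhba, an activin subunit, fell. Inhba went from 106, 79.3 and 29.0 CPM to 4.58, 18.6 and 16.5 CPM, a call lost in 5 of the 6 fits. Of 35 matrix and protease genes 1, P4ha1, fell and 1 rose, against 1.5% lowered and 1.94% raised over all genes tested. With the runs of column numbers as a covariate 12 of the 35 fell and 1 rose. The elastase Mmp12 (70.6 to 145 CPM, then 145 to 192 CPM) and the collagenase Mmp14 (606 to 756 CPM, then 293 to 541 CPM) were not called.

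A few genes of fatty acid oxidation and the citrate cycle rose. Of 37 genes of fatty acid oxidation 3 rose and 1 fell, and 31 had a change above 0, with a median of 0.26. Without library 1 of day 12, 7 rose and 0 fell, 2 rose and 0 fell without library 1 or library 2 of day 6, and 1 rose and 0 fell without library 2 or library 3 of day 12. Ogdh, a subunit of the 2-oxoglutarate dehydrogenase of the citrate cycle, went from 249.6, 267 and 292 CPM to 456, 389.6 and 396 CPM (log2 change 0.62 ± 0.12, adjusted p = 0.00403), without overlap, and held in all 6 fits. Pex11a, a peroxisome protein, Hadhb, a subunit of the mitochondrial trifunctional protein, Taldo1, a transaldolase, Acaca, the acetyl-CoA carboxylase that starts fatty acid synthesis, and Elovl6, a fatty acid elongase, were raised 1.46-fold to 2.87-fold, each with a call lost in at least 1 fit. Acsl1, which activates fatty acids and is induced by LPS, fell from 334, 258 and 231 CPM to 174, 183 and 167 CPM (adjusted p = 0.0487), a call lost in 5 of the 6 fits. Of 73 respiratory chain subunits none was called by edgeR, DESeq2 called 2, and the median was -0.033. An unadjusted p under 0.05 was seen in 6 of the 73, against 17.3% of all genes tested.

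All 24 tested genes of cholesterol synthesis and its control had a change above 0, with a median of 0.73, and in 22 of them the 3 libraries of day 12 lay above those of day 6, against 9.88% of all genes. None was called by edgeR, 6 had an unadjusted p under 0.05 (against 17.3% of all genes tested) and DESeq2 called 1. Sqle, squalene epoxidase, for example, was at 23.1, 36.7 and 57.0 CPM on day 6 and at 109, 74.6 and 69.0 CPM on day 12 (adjusted p = 0.290), and Dhcr7, the last step to cholesterol, at 32.0, 38.9 and 50.2 CPM and then 85.5, 69.8 and 65.7 CPM (adjusted p = 0.0573); these examples were chosen after their values were seen. Library 1 was the highest of day 12 and the lowest of day 6 for both. With only libraries 2 and 3 of each day the median of the list was 0.43. With the runs of column numbers as a covariate it was 0.38, and 1 gene was called raised. The 22 are a count of genes measured in the same libraries and not of independent observations. In resident cells the median between the same days was -0.050.

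Lysosomal genes moved little. Of 59 tested, 5 rose and 1 fell, with a median of 0.038, and without library 1 of day 6 none was called raised. Without library 1 of day 12 the median was -0.17, and without library 2 of day 9 as well 3 rose and 7 fell. Arsb, arylsulfatase B, went from 20.0, 27.5 and 32.6 CPM to 55.8, 39.2 and 38.3 CPM, and Ids, iduronate sulfatase, from 117, 112 and 116 CPM to 207, 156 and 144 CPM. Ppt1, a thioesterase that removes fatty acids from proteins, rose 1.39-fold, and Laptm5, a lysosomal membrane protein, 1.33-fold. These 4 calls were each lost in 2 or more of the 6 fits. Idua, iduronidase, fell 1.38-fold and held in all 6 fits. Slc25a37, the mitochondrial iron importer, fell from 354, 263 and 203 CPM to 125, 147 and 143 CPM (log2 change -0.99 ± 0.17, adjusted p = 0.00221), and Prdx6, a peroxiredoxin, from 197, 204 and 217 CPM to 113, 122 and 127 CPM; neither overlapped and both held in all 6 fits. Hsp90b1, a chaperone of the endoplasmic reticulum, was the only called member of 28 genes of the unfolded protein response and rose 1.41-fold, a call lost in 5 of the 6 fits.

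Several groups gave no call with edgeR in all libraries and no covariate. Their counts at an unadjusted p under 0.05 stand against 17.3% of all genes tested. Without library 1 of day 12 edgeR called 3 genes of antigen presentation and costimulation, 2 of replication, 3 transcription factors (1 raised, 2 lowered) and 2 respiratory chain subunits, and without library 3 of day 6 it called 1 gene of antigen presentation, 1 transcription factor and 1 respiratory chain subunit. Of 21 genes of antigen presentation and costimulation, 2 had an unadjusted p under 0.05 and DESeq2 called 2; H2-Ab1, an MHC class II chain, was at 1038, 529 and 816 CPM and then at 548, 465 and 433 CPM, and its chaperone Cd74 at 1750.3 to 3522 CPM and then 1572 to 2104 CPM. Of 43 replication and 45 mitosis genes, 5 and 1 had an unadjusted p under 0.05, and DESeq2 called 1 of each. Mki67, a proliferation marker, was at 64.1 to 89.4 CPM and then 43.6 to 76.9 CPM, and Top2a, a topoisomerase of dividing cells, at 8.65 to 21.7 CPM and then at most at 24.0 CPM. Of 47 macrophage transcription factors, 6 had an unadjusted p under 0.05 and DESeq2 called 2. Of 31 genes of the Fas and Bcl2 families, 5 had one and DESeq2 called none. With the runs of column numbers as a covariate edgeR called 4 Fas and Bcl2 genes lower. Of the transcription factors 3 were then raised and 4 lowered, and of antigen presentation and costimulation 4 raised and 1 lowered. In that fit 1 replication gene and 1 respiratory chain subunit were also raised. C1qb, C1qc and Trem2, a lipid receptor, had overlapping days, like C1qa. For the 3 C1q genes only library 1 of day 12 did not lie below all day 6 libraries. C1qb was at 487, 366 and 913 CPM on day 6 and at 1303, 143 and 163 CPM on day 12. C1qc was at 499, 318 and 896 CPM and then at 1259, 92.1 and 111 CPM. Both were called lower in 1 of 17 other settings.

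**Figure D5:**
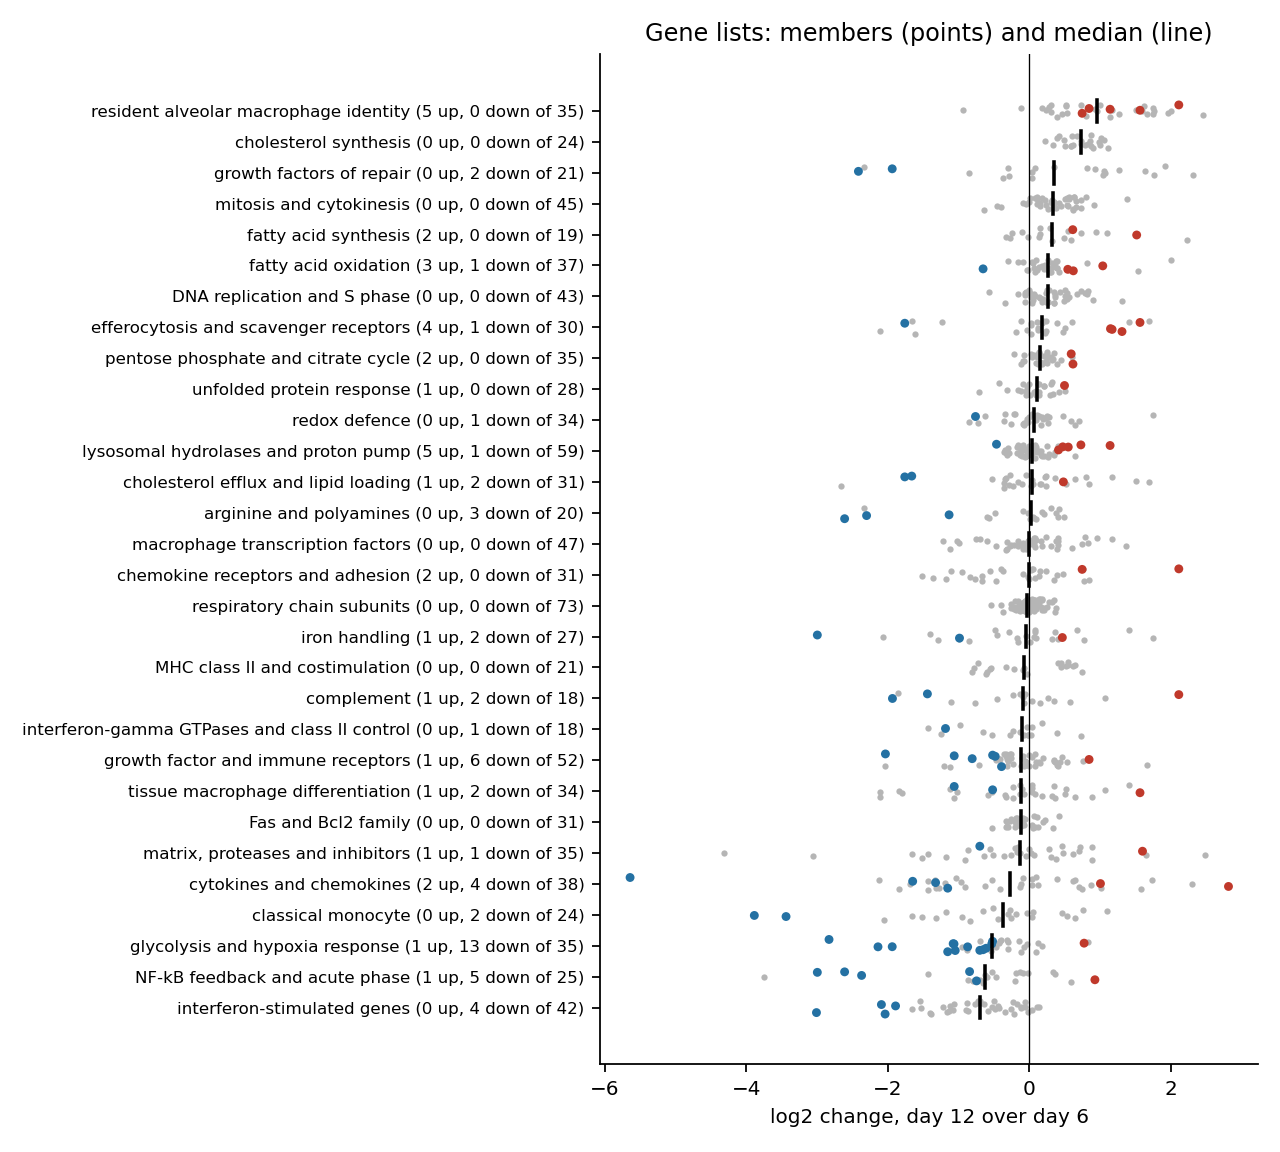
Log2 change from day 6 to day 12 of the tested members of 30 gene lists, ordered by their median (black line). Red and blue points are raised and lowered genes and grey points were not called; resident identity and cholesterol synthesis have the highest medians, 0.96 and 0.73, and interferon-stimulated genes the lowest, -0.69.

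Day 9 lay between the 2 days. Its mean was between those of days 6 and 12 for 261 of the 264 raised and 199 of the 204 lowered genes; since the genes were chosen for their difference between the outer days, this is a description. Tested against day 6, day 9 had 3 called genes (0.0221%), all lower, with 1089 (8.01%) at an unadjusted p under 0.05 and 45 called by DESeq2. These were C3 (log2 change -1.19 ± 0.18, adjusted p = 0.0118), Ccl5 (-4.31 ± 0.68, adjusted p = 0.0224) and Egln3 (-1.79 ± 0.30, adjusted p = 0.0224). Their day 9 levels were 659, 912 and 767 CPM, 5.33, 6.38 and 2.55 CPM, and 3.54, 8.33 and 4.57 CPM, below every day 6 library. From day 9 to day 12 only Ltb4r1 was called, lower (0.00735%), with 881 genes (6.48%) at an unadjusted p under 0.05 and 17 called by DESeq2. Ltb4r1 was at 10.01, 22.2 and 19.6 CPM on day 9. Between days 6 and 9, 42 genes were called without library 2 of day 9, 14 without library 3 of day 6, 1 without library 1 of day 9, and 0 without library 1 of day 6 or library 3 of day 9. Between days 9 and 12 it was 11 without library 3 of day 9, 4 without library 1 of day 12, and 0 without library 2 of day 9 or library 2 or 3 of day 12.

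Resident macrophages were compared between the same days, and 6 genes (0.0441%) were called, 4 higher (0.0294%) and 2 lower (0.0147%), with 1061 (7.8%) at an unadjusted p under 0.05. The difference between the recruited and the resident change was itself tested. It was called in 4 genes (0.0294%, with 6.59% at an unadjusted p under 0.05), Itgax, Mak, Ephx1 and Pxylp1. Mak, a kinase known from male germ cells and cilia, was at 3.08, 2.51 and 3.12 CPM in recruited cells of day 6 and at 10.2, 14.8 and 11.3 CPM on day 12, and at 36.5 and 46.7 CPM on average in resident cells of these days. The recruited change exceeded the resident one by 1.70 on the log2 scale for Mak (adjusted p = 0.00622), by 2.02 for Itgax (adjusted p = 0.00530) and by 2.64 for Ephx1 (adjusted p = 0.0354), which went from 26.5 to 16.9 CPM in resident cells. Pxylp1, a xylose phosphatase, had a lower change in recruited cells (-5.00, adjusted p = 0.0354), but in resident cells it rested on 1 count in all 3 libraries of day 6 and 30 counts on day 12. Leaving out library 1 of recruited day 12 gave 25 calls, library 2 of recruited day 6 gave 1, and each other library 2 to 5.

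Resident and recruited libraries of the same day and number deviated together from their group means. With 1 block for each day and number, fitted to the 12 libraries, the same test called 163 genes, 102 with a higher and 61 with a lower change in recruited cells, which is 1.27% of the genes in that fit, and 74 of them were among the 468. Of the resident identity genes 4 were then called higher, Itgax (2.01), Mrc1 (1.51), Atp6v0d2 (1.17) and Pparg (0.98), and 4 of the efferocytosis genes, among them Pros1 (1.17) and Axl (1.05). Mcoln3 (1.88) was also called. Of the 24 cholesterol genes 3 were called higher, among them Dhcr7 (1.00) and Insig1 (1.01), and 8 of the 35 glycolysis and hypoxia genes lower, among them Mif (-1.25), Slc16a3 (-1.25), Tpi1 (-1.01) and Hif1a (-1.06). Arg2 (-1.56), Arg1 (-2.50), F13a1 (-2.96) and Mki67 (-1.01) also had a lower change in recruited than in resident cells. These values are differences between 2 changes and not falls in recruited cells. In recruited cells alone edgeR called neither F13a1 (log2 change -0.51, adjusted p = 0.739) nor Mki67 (-0.45, adjusted p = 0.619) between the days, and Arg1 was not called either. Genes outside the naming rule are given here as examples chosen after their values were seen.

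The direction of change was set beside the difference between the populations on days that the comparison did not use. On day 3 resident cells were above recruited cells in 3193 genes (23.5%) and below them in 3149 (23.2%). Of the 264 genes raised from day 6 to day 12 in recruited cells, 225 (85.2%) were higher and none lower in resident cells on day 3, and those 225 were 7.05% of the 3193. Of the 204 lowered genes, 174 (85.3%) were lower in resident cells and 3 higher, and the 174 were 5.53% of the 3149. On day 9, when resident cells were above recruited cells in 16.4% and below in 15.5% of genes, 210 of the raised genes (79.5%) were higher and 127 of the lowered genes (62.3%) lower in resident cells. Most genes of either direction had thus moved towards the side on which resident cells stood on day 3, with the sizes given above: Itgax to 57.6%, Mrc1 to 42.9% and Siglecf, which was not called, to 11.9% of the resident level of day 12.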

How the data were processed

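Polyadenylated RNA of sorted cells was sequenced on an Ion Proton from libraries made with a modified stranded kit, per the labels' protocols. The authors deposited raw read counts per Ensembl gene, 1 column per library and not normalized, and a second table of counts of unassigned reads, which stayed out of library sizes and tests. The build mm10, the counter HTSeq 0.6.0 and the aligner STAR 2.4.0a are named per the submitters' processing notes. No source used here gives the strand option, so antisense partners may share reads. Totals over the 27 libraries were 11093216 to 18299674.

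Symbols and positions came from GENCODE mouse release M21 (36345 genes matched), and promoters from RefSeq. Genes were kept by filterByExpr (minimum count 10, minimum total 15) and tested in edgeR (version 4.0.16, under R 4.3.3) with TMM factors, 9 group means over all 27 libraries with 18 residual degrees of freedom, robust quasi-likelihood F tests in both directions, and Benjamini-Hochberg adjustment over all genes tested with a threshold of 0.05. DESeq2 1.42.0 was an alternative. Counts for 13599 genes were simulated with the fitted spread of each gene, independently for each library, and 200 genes above a minimum level were changed. Of these, 83% of genes changed by 1 and 97% of genes changed by 2 on the log2 scale were recovered, with 7 false calls. No library that stands apart and no shared deviation between libraries was simulated, so these rates do not cover such effects.

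Named genes were up to 4 of each list that were called without overlap, by size of change, the 12 most raised and 12 most lowered such genes reaching 20 CPM, up to 6 such genes in each direction for the recruited minus resident test, and a fixed set of markers. Genes named beyond this rule were chosen after their values were seen: Aldoa, Axl, Bnip3, Cd3e, Dhcr7, Epcam, Epx, Galnt3, Gpi1, Hif1a, Idua, Ifnar2, Ifngr2, Il18, Insig1, Kdm3a, Laptm5, Ly6g, Mak, Mpo, mt-Rnr1, Nfkb2, Pax5, Pfkfb3, Pfkfb4, Pgk1, Pxylp1, Relb, S100a8, S100a9, Sftpc, Slc16a3, Sqle and Tpi1. Values of some genes that the rule picked are not reported here. The comparison, the lists and the rule were chosen with earlier results of these data known. Same-numbered resident and recruited libraries correlated in their deviations from group means in all 6 pairs (r 0.17 to 0.22 on day 6 and 0.26 to 0.44 on day 12, across genes), which is where their pairing comes from.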

Additional observations from a re-analysis of the deposited data

Results flagged for a closer look

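The change from day 6 to day 12 differed between recruited and resident macrophages, by the test of that difference, in 4 genes. The recruited change was higher by 1.70 on the log2 scale for Mak, by 2.02 for Itgax and by 2.64 for Ephx1, and it was lower for Pxylp1, at -5.00. Of these, Pxylp1 rests on 1 resident count on day 6.

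Reads outside genes, which entered no comparison, made up a larger share than in any untreated library (at most 11.2%) in library 1 of recruited day 6 (12.3%), library 2 of recruited day 6 (26.5%) and library 2 of recruited day 12 (11.3%). What these reads are was not analysed here.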

How the results depend on the processing

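The count of 468 calls between days 6 and 12 (264 higher, 204 lower) was 455 (260, 195) with RLE scaling, 354 (185, 169) with library sizes alone, 491 (277, 214) with a replicate block in all libraries and, as an alternative added after seeing the data, 464 (289, 175) without library 1 of day 12 and library 2 of day 6. It was 271 (145 higher, 126 lower) with no filter, 845 (511, 334) with DESeq2, 117 (57, 60) with only the groups compared, 1477 (777, 700) with the runs of column numbers as a covariate, and, added after seeing the data, 1022 (592, 430) without library 1 of day 12 and library 2 of day 9 and 290 (176, 114) with libraries 2 and 3 alone. Leaving out single libraries gave 105 to 712 calls, 58 to 457 higher and 47 to 255 lower. A replicate block with only these 6 libraries gave 36 (13, 23); same-numbered libraries of the 2 days did not deviate together (r -0.07, 0.08 and -0.20 across genes), so they share only a number. Between days 6 and 9 the 3 calls (0 higher, 3 lower) became 5 (0, 5) with library sizes alone, 5 (2, 3) with no filter, 45 (15, 30) with DESeq2, 0 with only the groups compared, with or without the replicate block, 203 (67, 136) with the number runs, 105 (33, 72) without the 2 libraries that stand apart, and 0 to 42 (0 to 9, 0 to 33) without single libraries. Between days 9 and 12 the 1 call (0, 1) became 4 (3, 1) with no filter, 17 (15, 2) with DESeq2, 0 with only the groups compared, with or without the replicate block, 18 (10, 8) with the number runs, 0 without the 2 libraries that stand apart, and 0 to 11 (0 to 9, 0 to 2) without single libraries. The 4 calls of the recruited minus resident change (3 higher, 1 lower) were 50 (32, 18) with DESeq2, 8 (7, 1) with only the groups compared, 163 (102, 61) with the replicate block by day and number, 58 (33, 25) with the number runs, 5 (3, 2) with library sizes alone, 90 (52, 38) without the 2 libraries that stand apart, and 1 to 25 (1 to 15, 0 to 10) without single libraries. Fits with only the groups compared have fewer libraries from which to estimate the spread. The cause of the other shifts was not tested. The number runs also changed list counts beyond those given above. With them 2 cytokines and chemokines rose and 9 fell, and 2 NF-kB and acute phase genes rose and 11 fell. Of efferocytosis and scavenging genes 5 rose and 5 fell, and of lysosomal genes 6 rose and 7 fell. Over the named genes and these settings for days 6 and 12, 1333 values kept direction and side of the threshold, 324 lost the call, 25 gained one and 1 reversed: C1qa, with a log2 change of 0.04, was called lower (-1.84) with the number runs as covariate. Where 1 library of a day was left out and 2 remained, the spread was pooled over all groups. At 3 libraries a day and this depth, calls among genes of few counts, such as Plac8 and Ankrd37, rest on few reads.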
